A study of Canis lupus familiaris with 30 samples.

Results

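The transcripts of 9 genes of the vascular endothelial growth factor (VEGF) system were described across 30 primary canine thyroid carcinomas. They are the ligands VEGFA, VEGFB, VEGFC and PGF (placental growth factor), the receptor tyrosine kinases FLT1, KDR and FLT4, and the co-receptors NRP1 and NRP2 (neuropilins). They were found by gene symbol, 1 row each, among the 30424 genes of the count table, and all 9 passed the filter on low values (10 or more counts in 5 or more tumors), as did 18711 genes in all. Each tumor was labelled only as tumor tissue of the thyroid gland of a dog and gave 1 library of total RNA with ribosomal RNA removed. The study classed tumors as follicular carcinoma, of the hormone-producing follicular cells, or medullary carcinoma, of the calcitonin-producing C cells. The sample labels do not carry these classes, so the classes that the study gives elsewhere were not used here. The 30 tumors are treated as one labelled group without controls.

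VEGF ligands are secreted dimers that drive the growth and permeability of blood and lymphatic vessels. VEGFA binds FLT1 and KDR, of which KDR carries most of the signal in blood endothelium and FLT1 can act as a decoy. VEGFB and PGF bind FLT1, and VEGFC binds FLT4, the receptor best known from lymphatic endothelium and sprouting vessels. Neuropilins bind VEGF ligands as well as class 3 semaphorins. Thyroid tissue is rich in capillaries, and receptor kinases of this family are drug targets in thyroid cancer.

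The reads assigned to genes numbered 12288945 in the shallowest tumor and 45148677 in the deepest, and 13515 to 17482 genes had 10 or more counts. Counts were divided by a median-of-ratios size factor, which gives the normalized count, and the level is log2 of the normalized count plus 1. TC538 had the lowest total count, the fewest genes and the smallest size factor (0.279). In TC1088 thyroglobulin (TG) was at 12.0 normalized counts against a median of 325124 over the 30 tumors, and the summed level of 10 follicular cell markers was 251 normalized counts against a median of 405938. The endothelial markers PECAM1 (lowest 544 normalized counts, in TC2289) and CDH5 (lowest 83.3, in TC2289) were present in every tumor. Clustering on 740 variable genes, without the 9 genes and without the gene lists used here, parted the tumors into branches of 25 and 5. Correlations are given only within the branch of 25, since a pooled coefficient would mix the branches, and TC538 and TC1088 both belong to it. In bulk tissue, fewer cells of a type and less RNA per cell cannot be told apart.

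Among the ligands, PGF had the widest range. Its normalized count was 59.8 in TC1088, 4313 at the median and 21984 in TC1213, a 368-fold range with 6.58-fold between the quartiles. VEGFC ran from 37.2 normalized counts in TC2289 (29 reads) through a median of 1468 to 4720 in TC2089, a 127-fold range with 3.79-fold between the quartiles. After TC2289 the lowest VEGFC values were those of TC1936 (80.4), TC1088 (135) and TC1020 (138), and they went on through TC627 (235), TC1473 (265) and TC2110 (357). VEGFB ran from 112 in TC1936 through 966 to 3802 in TC1869, and the lowest values after TC1936 were those of TC2289 (133) and TC538 (165). VEGFA had the narrowest range of the ligands, from 2333 normalized counts in TC2289 through 11586 to 34076 in TC2011, a 14.6-fold range with 1.96-fold between the quartiles. TC2011 and TC1213 (28522) stood above the other tumors for VEGFA, the next being TC1593 at 20727.

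Among the receptors, KDR varied least. It ran from 902 normalized counts in TC640 through a median of 2733 to 8338 in TC1218, a 9.25-fold range. FLT1 ran from 478 in TC1088 through 1841 to 7780 in TC1213, and TC1218 (7019) and TC22 (6819) were close to the highest value. TC22 and TC1218 were also among the 3 highest tumors for KDR, with TC1979 (7671) between them. FLT4 ran from 122 normalized counts in TC538 (34 reads) and 137 in TC2289 through 1459 to 5403 in TC1979. The third lowest FLT4 value was 347, in TC1473, so TC538 and TC2289 lay apart from the rest.

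The co-receptors differed in spread. NRP1 had the smallest spread of the 9, with a standard deviation of 0.74 log2 units over the 30 tumors, at the 29.0th percentile of all genes tested. Its normalized count was 3756 in TC2289, 18581 at the median and 38829 in TC1241. NRP2 ran from 181 in TC2289 through 1400 to 9347 in TC1088, a 51.7-fold range, and TC1088 and TC1979 (6816) stood above the next tumor, TC2110 (3922). For PGF the standard deviation was 2.11 log2 units (92.3rd percentile of all genes tested) and for VEGFC 1.73 (86.2nd), against a median of 0.95 over all genes tested. VEGFA (0.94) and KDR (0.88) were near or below that median. These spreads pool both branches of the clustering. All 5 tumors of the smaller branch lay below the 30-tumor median for PGF (160 to 1555 normalized counts) and for VEGFC (37.2 to 548). Spread within the larger branch was not computed. TC2289 was among the 5 lowest tumors for all 9 genes. Its 10 most abundant genes took 40.3% of the counts, the largest share of the 30. TC1869, with a share of 40.2%, was among the 5 highest tumors for 3 of the 9 genes and among the 5 lowest for 0. Whether this share bears on the levels was not tested. TC1979 was among the 5 highest tumors for 6 of the 9 genes, TC1213 for 5 and TC22 for 4.

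**Figure D1:**
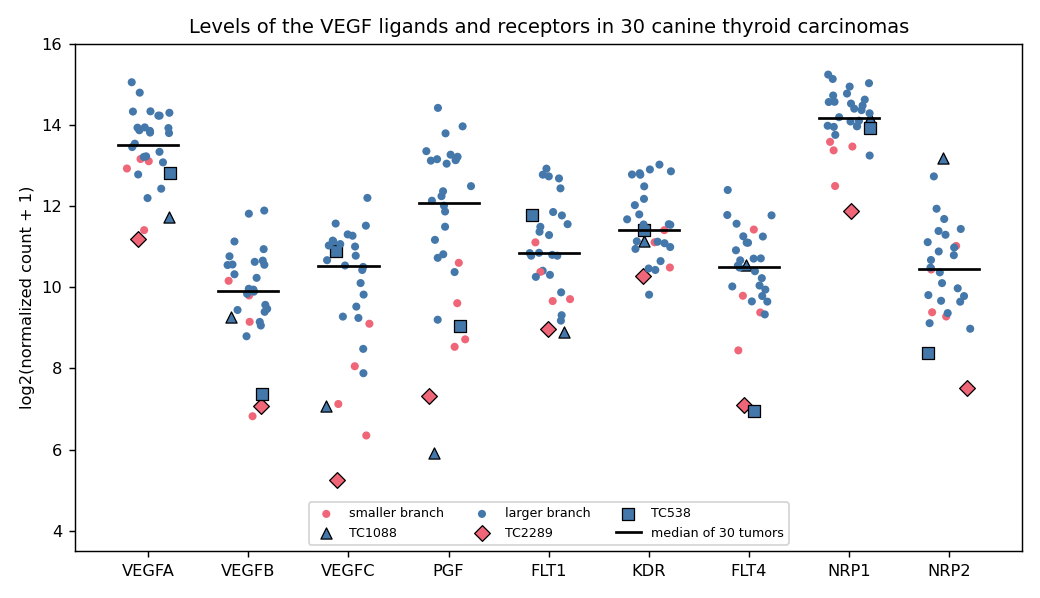
Levels of the 9 genes in 30 tumors, as log2 of the normalized count plus 1. Each point is 1 tumor, coloured by branch of the clustering, black lines are medians, and TC538, TC1088 and TC2289 have their own symbols. Gene length was not taken into account, so heights compare tumors within a gene and not genes with each other. PGF and VEGFC spread most, and NRP1 and KDR least.

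The first comparison asked which of the 9 genes varied together over the 25 tumors of the larger branch. FLT1 and KDR did most closely, with r = 0.86 (permutation p = 1e-05) and Spearman's rho = 0.85 (permutation p = 1e-05), the smallest p that 100000 permutations can give. Without TC1088 and TC812, the tumors farthest from the median of FLT1, r was 0.89. KDR and FLT4 also varied together, with r = 0.56 (permutation p = 0.00238) and rho = 0.75 (permutation p = 7e-05). Here r without TC1218 and TC640 was 0.61, and the scatter shows TC538 with a low FLT4 and a middling KDR level. The FLT1 ligands VEGFB and PGF formed another such pair, with r = 0.54 (permutation p = 0.00598) and rho = 0.58 (permutation p = 0.00311). Without TC1869 and TC538, r was 0.43 (permutation p = 0.0414).

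Of the 36 pairs, these 3 passed the threshold used for calls, an adjusted p below 0.05 over all genes of the table from the side of both genes. The larger of the pair's adjusted p-values (Benjamini-Hochberg over 18710 permutation tests of rho) was 0.0011 for FLT1 and KDR, 0.00428 for KDR and FLT4, and 0.0495 for VEGFB and PGF. At an unadjusted p below 0.05 there were 12 pairs, all with rho above 0, and 30 of 36 had rho above 0, with a median of 0.29. Of 18710 genes, from 1636 (with FLT1) to 6306 (with FLT4) met that unadjusted p with a single one of the 9, in either direction. The median rho over all genes lay between -0.01 (FLT1) and 0.03 (FLT4). For comparison, positive calls made up 1.18% of all genes tested for FLT1, 1.78% for KDR, 8.67% for FLT4, 3.49% for VEGFB and 7.09% for PGF. The VEGFB and PGF pair no longer passed without TC538 (rho 0.53, adjusted p = 0.121 by permutation) or without TC1088 (rho 0.55, adjusted p = 0.0809 by permutation).

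VEGFA and its receptors gave lower coefficients. With KDR, VEGFA had r = 0.35 (permutation p = 0.0867) and rho = 0.31 (permutation p = 0.134), and r without TC1088 and TC2402 was 0.24. With FLT1, r was 0.47 (permutation p = 0.0171) and rho 0.41 (permutation p = 0.0412), and r fell to 0.29 without the same tumors, so the relation rests on them. The highest coefficients of VEGFA were with PGF, at r = 0.74 (permutation p = 5e-05) and rho = 0.62 (permutation p = 0.00119). The PGF pair kept r = 0.61 without TC1088 and TC2402. Its adjusted p over all genes was 0.0204 from the side of PGF and 0.131 from that of VEGFA, so it was not called.

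VEGFC and FLT4, a ligand and its receptor, had r = 0.20 (permutation p = 0.316) and rho = 0.42 (permutation p = 0.037), and r was 0.23 without TC1088 and TC627. The larger adjusted p of that pair over all genes was 0.334 by permutation. FLT4 and NRP2, which binds VEGFC as a co-receptor, had r = 0.61 (permutation p = 0.00139) and rho = 0.57 (permutation p = 0.00342), and without TC1979 and TC538 r was 0.38 (permutation p = 0.0719) and rho 0.46 (permutation p = 0.0276). The value of r thus rests on those tumors. NRP1 had negative coefficients with VEGFA (r -0.26, rho -0.24), FLT1 (r -0.21, rho -0.28), KDR (r -0.06, rho -0.07) and VEGFB (r -0.06, rho -0.05), none of which passed an unadjusted p of 0.05 by permutation. NRP1 and NRP2 gave r = 0.16 (permutation p = 0.449) and rho = 0.18 (permutation p = 0.387), with r = 0.13 without TC1241 and TC627.

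**Figure D2:**
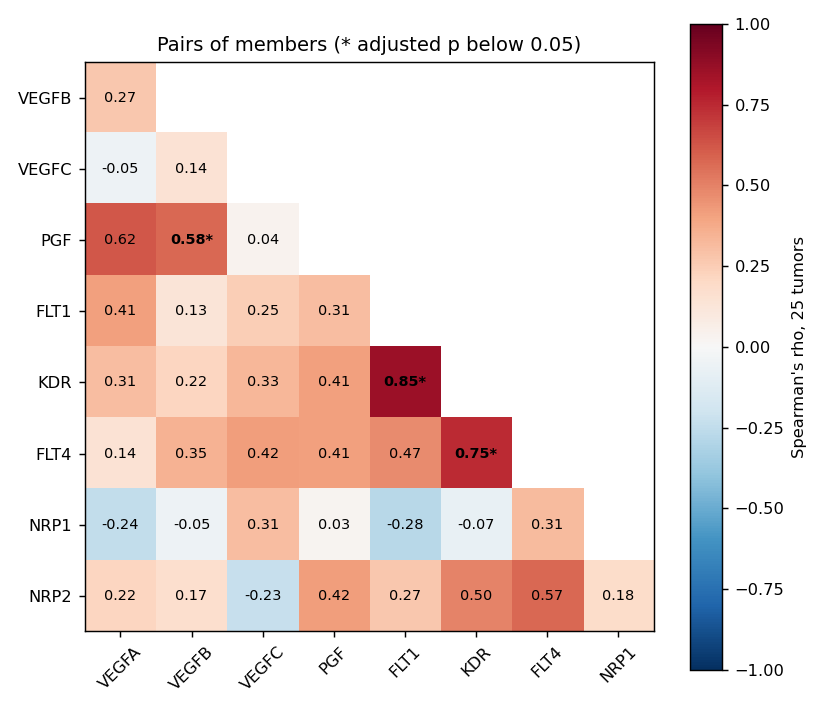
Spearman's rho of the 36 pairs over the 25 tumors of the larger branch, with colour from blue (-1) to red (1). Stars mark the 3 pairs with an adjusted p below 0.05 over all genes, which are FLT1 with KDR, KDR with FLT4, and VEGFB with PGF.

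**Figure D3:**
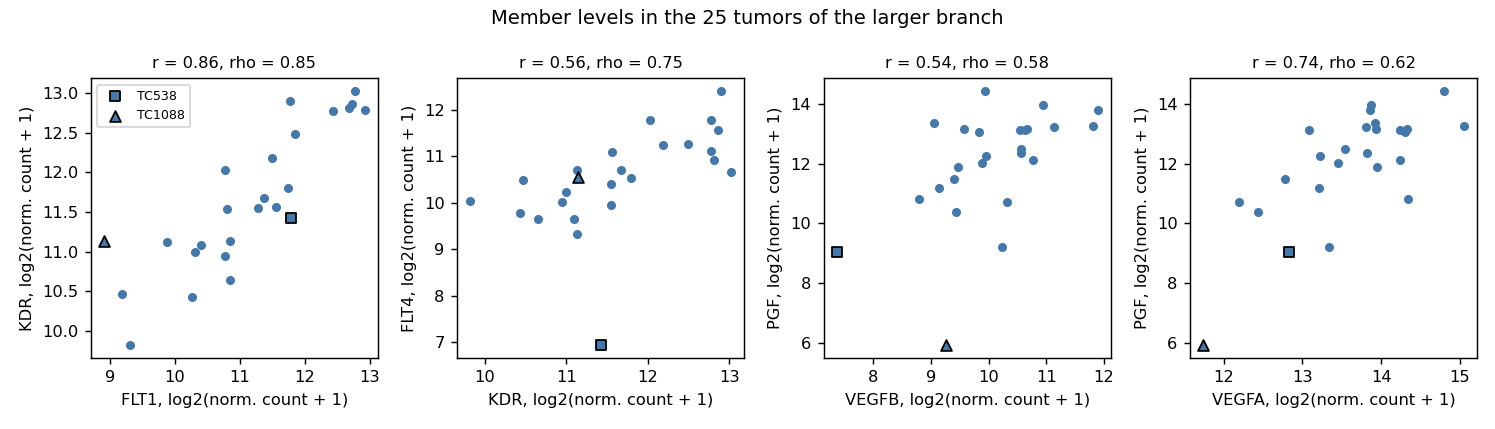
Levels (log2 of the normalized count plus 1) of 4 pairs in the 25 tumors, 1 point per tumor, with TC538 as a square and TC1088 as a triangle. FLT1 and KDR follow each other over the whole range (r = 0.86), while TC538 lies low for FLT4 and VEGFB and TC1088 lies low for PGF and VEGFA.

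The second comparison asked which other genes varied with each of the 9 genes, over 18710 genes and the same 25 tumors (Spearman's rho, permutation of ranks, Benjamini-Hochberg adjustment over all genes). For KDR, 333 genes were positively correlated (1.78% of those tested) and 15 negatively (0.0802%). The highest were PCDH17, a protocadherin (rho 0.90), HLX, a homeobox factor (rho 0.89), and TMEM204 (rho 0.89), each with an adjusted p of 0.00085 by this test. KDM1A, a histone demethylase, had the lowest rho (-0.76, adjusted p = 0.00312), followed by GPR179 (-0.72) and ST13 (-0.70).

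KDR moved with the vessel wall lists. Of 16 blood endothelial markers, 13 were positively correlated with KDR, and their median rho was 0.76 against -0.01 over all genes tested. The highest were the fenestral diaphragm protein PLVAP (rho 0.85), the angiopoietin receptor TEK (0.82) with its partner TIE1 (0.83), and EGFL7 (0.81). Of 8 mural cell genes, which mark pericytes and smooth muscle, 6 were called, led by CSPG4 (0.83), PDGFRB (0.81), MCAM (0.80) and RGS5 (0.77). The median of this list was 0.74. Angiopoietin and Notch genes gave 4 calls of 12, namely NOTCH4 (0.72), the apelin receptor APLNR (0.72), the Notch ligand DLL4 (0.71) and VASH1 (0.68). Of 4 lymphatic endothelial genes only LYVE1 was called (rho 0.69).

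For FLT1, 221 genes were positively correlated (1.18%) and 4 negatively (0.0214%). The highest were PLBD1 and MYCT1 (both rho 0.89) and PODXL, a sialomucin of endothelium (0.88), each with an adjusted p of 0.0011 by permutation. The lowest were GYG2 (-0.70), CHMP4C (-0.69) and CCDC113 (-0.67). Blood endothelial markers were called 9 times of 16, with a median rho of 0.69, led by TEK (0.84), PECAM1 (0.83), the TGF-beta co-receptor ENG (0.75) and PLVAP (0.73). Mural cell genes were called 4 times of 8, led by the pericyte gene RGS5 (0.86), with PDGFRB at 0.73, MCAM at 0.71 and ACTA2 at 0.70. LYVE1 (0.83), the endothelial nitric oxide synthase NOS3 (0.69) and the endothelin gene EDN1 (0.67) were called as well. ANGPT2, a ligand of TEK, had a rho of 0.59 with FLT1 (adjusted p = 0.121 by permutation) and of 0.53 with KDR (adjusted p = 0.191), and was not called with either.

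For FLT4, 1623 genes were positively correlated (8.67%) and 1855 negatively (9.91%). The highest were PCDH12, a protocadherin of endothelium (rho 0.88), APLNR (0.88) and the semaphorin receptor PLXND1 (0.87), each with an adjusted p of 0.000832 by permutation. The lowest were TM9SF3 (-0.86), LRIF1 (-0.84) and CEP192 (-0.82). Of 16 blood endothelial markers 14 were called, with a median rho of 0.71 against 0.03 over all genes, led by TIE1 (0.83), the junction protein CDH5 (0.82), MMRN2 (0.81) and PLVAP (0.79). Of 4 lymphatic genes only 1 was called with FLT4, PROX1 (0.70), the master factor of lymphatic identity. LYVE1 (0.38, adjusted p = 0.172 by permutation) was not called. PROX1 was at 0 normalized counts in TC538 and 7624 in TC1241, against a median of 80.8. Semaphorins and plexins gave 5 calls of 11, with SEMA3F at 0.77 and SEMA3G at 0.60. Negative calls included 3 of 14 hypoxia genes, P4HA1 (-0.66), KDM3A (-0.66) and PDK1 (-0.66).

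FLT4 also moved with the first principal component of the 25 tumors, which held 20.3% of the variance and had TC538 far out at one end (rho of FLT4 with the component 0.66). Without TC538, 1914 genes were called with FLT4, and 13 of 16 blood endothelial markers. With the component removed from the ranks, 315 genes and 7 endothelial markers were called. The same removal left 13 endothelial markers for KDR and 11 for FLT1, whose rho with the component was 0.27 and 0.07.

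**Figure D4:**
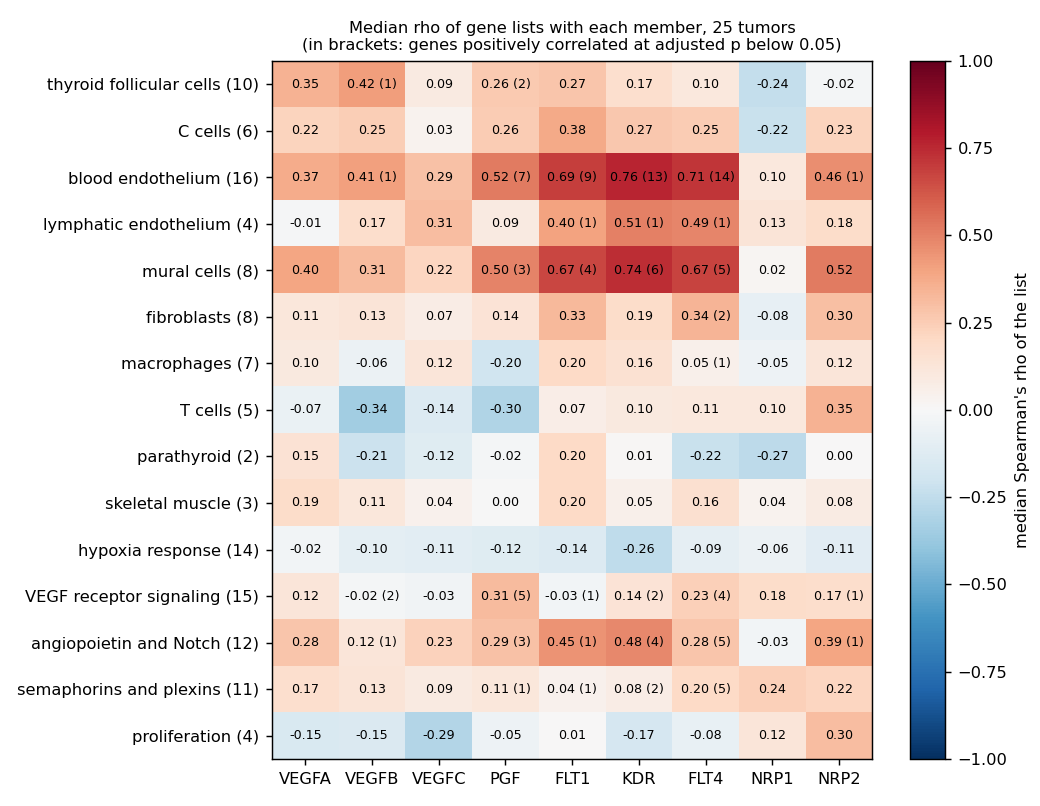
Median Spearman's rho of the tested genes of 15 lists (number of genes in brackets beside the list name) with each of the 9 genes over 25 tumors. A number in brackets inside a cell is the count of list genes positively correlated at an adjusted p below 0.05. The highest medians are those of blood endothelium and mural cells with KDR (0.76 and 0.74), FLT4 (0.71 and 0.67) and FLT1 (0.69 and 0.67).

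Among the ligands, PGF had 1326 positively (7.09%) and 1210 negatively (6.47%) correlated genes. CHST12, a chondroitin sulfotransferase (rho 0.87), and PDK2, a pyruvate dehydrogenase kinase (0.84), were among the 3 highest, and ABI1 (-0.89), HNRNPR (-0.88) and ZNF436 (-0.86) were the lowest, all with an adjusted p of 0.00134 by permutation. Thyroid follicular genes were called in 2 of 10 cases, PAX8, a transcription factor of follicular cells (0.79), and DUOXA2, the maturation factor of a thyroid oxidase (0.57). Blood endothelial markers were called 7 times of 16, with a median of 0.52, led by SOX18 (0.66), EGFL7 (0.65), ROBO4 (0.62) and TIE1 (0.59). The Notch ligand DLL4 (0.73) led the 3 calls among 12 angiopoietin and Notch genes. Of 15 receptor signaling genes 5 were positive calls, among them MAPK3 (0.62), NOS3 (0.61) and SRC (0.61), and 3 were negative calls, among them NCK1 (-0.57).

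These PGF counts depended on single tumors and on the first component, with which PGF had a rho of 0.58. Without TC538, 942 genes and 2 endothelial markers were called, and without TC1088, 4 endothelial markers were called. With the component removed, 146 genes and 0 endothelial markers were called by the same test. Before removal, 13 of 16 endothelial markers had an unadjusted p below 0.05 and edgeR called 10. Of all 18710 genes, 6017 had an unadjusted p below 0.05 with PGF and edgeR called 3982.

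VEGFB had 653 positively (3.49%) and 487 negatively (2.6%) correlated genes. SNX15 (rho 0.86), BET1L (0.85) and TOLLIP (0.84) were the highest and ELL2 (-0.81), ZP2 (-0.81) and SMCO2 (-0.78) the lowest, with medians of 9.05 and 7.80 normalized counts for ZP2 and SMCO2. List genes called with VEGFB were few, with CLDN5 (0.62) the only one of 16 blood endothelial markers and the deiodinase DIO1 (0.63) the only one of 10 follicular genes. The median rho of the endothelial list was 0.41, with 15 of 16 above 0, 8 at an unadjusted p below 0.05, 6 called by edgeR and 11 by DESeq2. Of all 18710 genes, 5507 had an unadjusted p below 0.05 with VEGFB, edgeR called 5701 and DESeq2 7005. Without TC538 or without TC1088, 0 of the 16 were called by Spearman's test. The rho of VEGFB with the first component was 0.55. Without TC538 the number of genes called fell to 296, without TC1088 to 551, and with the component removed to 13.

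VEGFA had no correlated gene at an adjusted p below 0.05 by Spearman's test, 0 positively (0%) and 0 negatively (0%), although 2520 genes had an unadjusted p below 0.05. With the VEGFA level as a covariate of the counts, edgeR called 493 genes and DESeq2 1545. The highest coefficients were those of ADAMTSL2 (0.76), the nucleotide synthesis enzyme IMPDH1 (0.75) and the mesenchymal factor FOXF1 (0.75), and the lowest that of MYCBP (-0.79), each with an adjusted p of 0.0518 by permutation. VEGFA is a classic target of hypoxia-inducible factors. Of 14 other hypoxia response genes, 0 were called with VEGFA by Spearman's test, which was fixed because that test called no gene at all. At an unadjusted p below 0.05 there were 0 of the 14, and edgeR and DESeq2 called 0. At the all-gene counts given above, 14 genes are too few for these counts to decide on a relation with hypoxia genes. Their rho ran from -0.28 for PDK1 to 0.36 for EGLN3, and the median was -0.02. The 16 blood endothelial markers had a median rho of 0.37 with VEGFA, against 0.01 over all genes, and 16 were above 0. For the 8 mural cell genes the median was 0.40, and 7 were above 0. At an unadjusted p below 0.05 there were 4 of the 16 and 4 of the 8. edgeR called 1 and 0 of them, and DESeq2 7 and 4. VEGFA was the only one of the 9 called with library depth by rho. Its rho was 0.57 with the total count on genes (adjusted p = 0.029 over 18 permutation tests) and 0.57 with the number of genes with at least 10 counts (adjusted p = 0.029, permutation). The values of r were 0.42 and 0.41 (adjusted permutation p = 0.135 for each), and 0.43 and 0.36 without the 2 tumors farthest from the median. Neither relation passed without TC538, and their part in the other VEGFA results was not tested. VEGFB had r = 0.58 with the total count (adjusted permutation p = 0.0482), with rho = 0.42 (adjusted permutation p = 0.18) and r = 0.25 without TC1869 and TC538.

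VEGFC likewise had 0 genes positively (0%) and 0 negatively (0%) correlated at an adjusted p below 0.05 by Spearman's test, with 2551 at an unadjusted p below 0.05, 279 called by edgeR and 573 by DESeq2. PPP2CB and ADD1 (both rho 0.79, adjusted p = 0.0561 by permutation) and ANPEP, an aminopeptidase (0.76), were the highest, and KNOP1 (-0.72), PERP (-0.72) and RPS24 (-0.71) the lowest. Of 4 lymphatic endothelial genes 0 were called, which was fixed because Spearman's test called no gene at all with VEGFC. Of these, 1 had an unadjusted p below 0.05 (RELN, rho 0.56), and edgeR and DESeq2 called 0. With 4 genes these counts cannot decide on a relation. The median over the 16 blood endothelial markers was 0.29.

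For the neuropilin NRP1, 4 genes were positively (0.0214%) and 2 negatively (0.0107%) correlated. STARD5 (rho 0.81), GPIHBP1, which anchors lipoprotein lipase in capillaries (0.78), and THSD4 (0.77) were the highest, and BAG2, a co-chaperone (-0.84), the lowest. Of 16 blood endothelial markers 0 were called with NRP1, 0 had an unadjusted p below 0.05, and edgeR and DESeq2 called 0, with a median rho of 0.10. As only 6 of 18710 genes were called with NRP1 by Spearman's test, 0 calls in a list were to be awaited. Over all genes 2097 had an unadjusted p below 0.05, edgeR called 97 and DESeq2 566. Among semaphorins and plexins, whose signals neuropilins carry, 0 of 11 were called, 4 had an unadjusted p below 0.05, edgeR called 0 and DESeq2 1, with PLXNA1 at 0.47 and PLXNA4 at 0.44. TG had a rho of -0.64 with NRP1 (adjusted p = 0.193 by permutation). Without TC538, 0 genes were called with NRP1, and without TC1088, 3.

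For NRP2, 111 genes were positively (0.593%) and 14 negatively (0.0748%) correlated. The immunoproteasome subunit PSMB9 (rho 0.92), HSPA12A (0.90) and VAV1, a signaling protein of blood cells (0.85), were the highest, and RNF34 (-0.83), ANAPC7 (-0.70) and STOX1 (-0.70) the lowest. MMRN2 (0.76) was the only one of 16 blood endothelial markers called, and the median was 0.46. The counts changed without TC1088, the tumor with the highest NRP2 value and scarcely any thyroglobulin. When it was left out, 433 genes were called, with 8 of 16 blood endothelial and 5 of 8 mural cell genes. Without TC538, 37 genes were called. T cell genes gave a median rho of 0.35 with NRP2, with 0 of 5 called, 0 at an unadjusted p below 0.05 and 0 by edgeR and DESeq2. With 5 genes these counts cannot decide on a relation.

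The remaining lists gave few calls with any of the 9 genes. Over all 18710 genes, Spearman's test called from 0 (VEGFA and VEGFC) to 3478 (FLT4). An unadjusted p below 0.05 was met by 1636 (FLT1) to 6306 (FLT4). By the count models, edgeR called from 97 (NRP1) to 6328 (FLT4) and DESeq2 from 566 (NRP1) to 7592 (FLT4). At such rates, lists this short cannot show an absence of relation. C cell genes gave 0 calls in 54 relations by Spearman's test, with 4 at an unadjusted p below 0.05, 6 by edgeR and 9 by DESeq2. Over both branches, CALCB and GFRA4 each had under 10 counts in 22 tumors, SCG2 in 17 and CHGB in 16. CALCA did in 3 and RET in 0. For genes at such low counts in most tumors, 0 calls cannot decide on a relation. Proliferation genes gave 0 calls in 36 relations, with 1 at an unadjusted p below 0.05, 2 by edgeR and 2 by DESeq2. T cell genes gave 0 calls in 45 relations, with 4 at an unadjusted p below 0.05, 0 by edgeR and 1 by DESeq2. Parathyroid genes gave 0 calls in 18 relations, with 1 at an unadjusted p below 0.05, 5 by edgeR and 10 by DESeq2. Over both branches, PTH had under 10 counts in 25 tumors and CASR in 15, so the same limit holds. Fibroblast genes were called with FLT4 alone, 2 of 8, namely THY1 (0.65) and COL1A2 (0.56). Of 7 macrophage genes 1 was called with FLT4, the receptor gene CSF1R (0.72), and the lowest rho of that list was -0.37. Positive calls with FLT4 made up 8.67% of all genes. Of 3 muscle genes 1, MYL1 (-0.57), was called with PGF, where negative calls made up 6.47% of all genes.

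**Figure D5:**
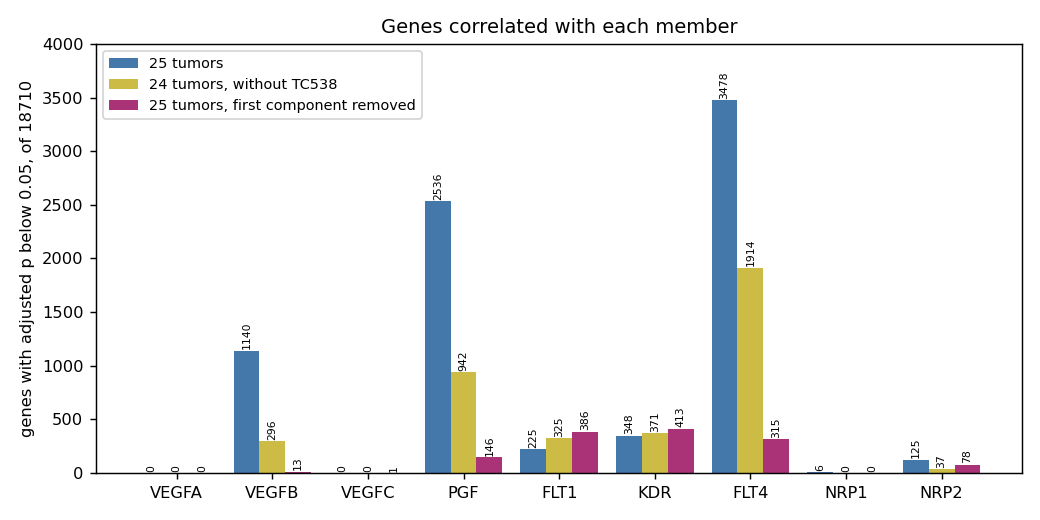
Number of genes, of 18710, correlated with each of the 9 genes at an adjusted p below 0.05, over 25 tumors (blue), over 24 tumors without TC538 (yellow) and with the first principal component removed (purple). The counts of FLT4, PGF and VEGFB fall from 3478, 2536 and 1140 to 315, 146 and 13 with the component removed, while those of KDR and FLT1 rise from 348 and 225 to 413 and 386.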

How the data were processed

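Total RNA of 30 primary canine thyroid tumors was sequenced after removal of ribosomal RNA. STAR was used by the authors to map the read pairs (CanFam3.1 build), and the deposited values are raw counts per Ensembl gene. The strand setting of the counting is not given in the sources used here, so reads of overlapping genes cannot be told apart. In a RefSeq table of another dog assembly, UU_Cfam_GSD_1.0, PGF overlaps EIF2B2 and a long noncoding RNA, FLT1 a pseudogene, and KDR, FLT4, NRP1 and NRP2 long noncoding RNAs. All samples carry separate titles, 0 pairs of tumors had identical counts, and 0 columns belonged to no tumor. The study counts each sequenced tumor as a separate canine case, and p-values measure the spread between these tumors.

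Size factors were medians of ratios over 15611 genes detected in all 30 tumors. The pseudocount was 1 and genes needed 10 or more counts in 5 or more tumors. Branches came from Ward clustering of genes whose mean level exceeded 2 and whose variance exceeded 6. Pairs were tested with 100000 two-sided permutations and all genes with 1000000 permutations of ranks. Coefficients of genes outside the 9 are Spearman's rho, with Pearson's r, edgeR and DESeq2 used as alternatives for the counts of genes called. Pairs were called by the adjusted p over all genes, in place of the planned adjustment over the 36 pairs. The levels were to be compared between genes per length, which was not done because gene lengths were not used here, nor were sequences. The 9 genes and the 15 lists were chosen with earlier results of these data known. Named genes are the 9, the 3 genes at either end of the order by rho with each, and up to 4 genes of a list with the largest rho. Further genes were named after their values were seen. 2 genes that the rule picks, 1 each for PGF and NRP1, are not reported here. Of 133 list genes 125 were tested. Alternatives were TMM-scaled counts, all 30 tumors, leaving out TC538 or TC1088, Pearson's r, a pseudocount of 8, other count filters, edgeR's quasi-likelihood test and DESeq2. Removing the first component and the adjustment over 36 pairs were added after seeing the data. Tests were tried on simulated data of 25 tumors, with genes made to move with the KDR level. Of 100 genes moving by 1 log2 unit per standard deviation, Spearman's test found 72, edgeR 91 and DESeq2 95. Of 100 moving by 2 units, each found 100. With 18711 genes tested in these simulated data, false calls numbered 11, 7 and 55 in the same order, so DESeq2 made the most. Whether these numbers hold for the 25 tumors, where the first component held 20.3% of the variance, was not tested. R 4.3.3, edgeR 4.0.16, DESeq2 1.42.0, Python 3.11.15, numpy 2.4.6, scipy 1.17.1, pandas 2.3.3 and matplotlib 3.10.9 were used. Counting error is smallest in deep libraries, and TC538 was the shallowest.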

Additional observations from a re-analysis of the deposited data

How the results depend on the processing

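The number of genes called with each of the 9 genes was the value most open to processing. DESeq2 called 1545 genes with VEGFA, 7005 with VEGFB, 573 with VEGFC, 5559 with PGF, 703 with FLT1, 627 with KDR, 7592 with FLT4, 566 with NRP1 and 1601 with NRP2. edgeR called 493 with VEGFA, 5701 with VEGFB, 279 with VEGFC, 3982 with PGF, 458 with FLT1, 6328 with FLT4, 97 with NRP1 and 1150 with NRP2. Pearson's r called 74 with VEGFA, 6159 with VEGFB, 3 with VEGFC, 7423 with FLT4 and 242 with NRP2. All 30 tumors, which pool both branches, gave 259 for VEGFA, 2075 for VEGFB, 693 for VEGFC and 279 for NRP1, 6 called pairs and 0 relations with library measures. TMM-scaled counts gave 23 for VEGFA and 10 for NRP1. Without TC538 there were 296 for VEGFB, 942 for PGF, 1914 for FLT4, 0 for NRP1, 37 for NRP2 and 0 relations with library measures. Without TC1088 there were 551 for VEGFB, 2 for VEGFC, 3 for NRP1 and 433 for NRP2. No count filter gave 626 for VEGFB, 3 for NRP1 and 72 for NRP2, and a strict filter (50 counts in 15 tumors) 2 for VEGFC and 146 for FLT1. With the first component removed there were 13 for VEGFB, 1 for VEGFC, 146 for PGF, 386 for FLT1, 315 for FLT4, 0 for NRP1 and 78 for NRP2. The causes were not tested. Adjusted over the 36 pairs alone, which is not independent of the choice of genes, 5 pairs were called.

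Of 252 pair coefficients under alternatives, 240 kept their side of the threshold, 5 lost and 7 gained a call, and 0 called coefficients changed sign. FLT1 with KDR was called under each of them, and KDR with FLT4 under each except Pearson's r (0.56, adjusted p = 0.148, or 0.133 with a pseudocount of 8). The blood endothelial markers called with KDR numbered 12 or 13 of 16 under each alternative of the Spearman and Pearson tests. The comparison of levels per length and its alternatives were not run. No paired analysis was possible because all tumors form one group. Tumor class was not used here, depth limits TC538 most, and with 25 tumors the smallest size of rho that was called ran from 0.52 for FLT4 to 0.76 for NRP1.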

Other observations

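The 5 tumors of the smaller branch were TC1020, TC1473, TC1601, TC1936 and TC2289. Their labels give no class, the classes that the study gives elsewhere were not used here, and no test was made on these tumors. In the order just given, VEGFA was at 8831, 2719, 7802, 9178 and 2333 normalized counts, and PGF was at 780, 369, 1555, 420 and 160. VEGFC was at 138, 265, 548, 80.4 and 37.2 normalized counts, and VEGFB at 890, 567, 1143, 112 and 133. Among the receptors, KDR was at 1435, 2641, 2719, 2210 and 1234, FLT1 at 809, 2207, 1332, 835 and 497, and FLT4 at 665, 347, 2746, 885 and 137. NRP1 was at 12297, 5783, 11353, 10641 and 3756, and NRP2 at 667, 1387, 2075, 621 and 181. CALCA, which encodes calcitonin, was at 424618, 224798, 114043, 620077 and 122 normalized counts in these tumors against a median of 120 over all 30. CALCB, its paralog, was at 2069, 1055, 50800, 13512 and 355 against a median of 1.33. TC2289, with the lowest CALCA of these, had the highest level of another C cell gene, SCG2 (204025 normalized counts against a median of 6.64). High CALCA values were not limited to the smaller branch. In the larger branch, TC22 had CALCA at 7657 and CALCB at 403 normalized counts, both above those of TC2289. CALCA was also at 3925 in TC812 and 1897 in TC1213.

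The parathyroid hormone gene PTH reached 28525 normalized counts in TC2288, a tumor of the larger branch, against a median of 4.72. In TC2288 PGF was at 587 and NRP2 at 658 normalized counts.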
